A study of Mus musculus with 4 samples.

Results

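The data describe 10 mouse genes in 5 pairs on chromosomes other than that of Avpr1a, the targeted gene: Mmp2 with Lpcat2, Cap1 with Ppt1, Tmem267 with 4833420G17Rik, Unc45b with Slfn9, and Exosc9 with Cetn4. The genes of the first 4 pairs are at most 30.9 kb apart, and Exosc9 and Cetn4 are 742.9 kb apart. The pairs were chosen by the large differences of both genes between the genotypes on these same arrays, so every difference given for them is a description and carries no test. A probe set is a group of short oligonucleotides that reads 1 transcript region, and all probe sets annotated to exactly 1 of the 10 genes were taken. They numbered 23, among 45037 probe sets and 18194 named genes in all. RNA of adrenal glands from males, 2 months old, was hybridised to an Affymetrix whole-genome array. There were 2 arrays of mice without the vasopressin receptor V1a (V1a_KO) and 2 arrays of wild-type mice (WT). The labels give neither the strain of the mice nor the litter, so the loss of the receptor and any other inherited difference between the mice of the 2 genotypes cannot be told apart. Nor do they tie each array to an animal of its own, and the spread within a group may be technical.

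Neighbouring genes lie in the same stretch of chromatin, can share regulatory elements, and are inherited together with the sequence variants between them. A pair can be arranged in tandem, with both genes read in the same direction, or convergent, with the 3′ ends facing each other, or divergent, with the start sites facing each other. Avpr1a encodes V1a, which binds vasopressin and acts through Gq proteins and calcium. The 10 genes have no common pathway. They encode a secreted protease, an enzyme of membrane lipids, an actin-binding protein, a lysosomal enzyme, a membrane protein, a myosin chaperone, a Schlafen protein, a subunit of the RNA exosome and a centrin, beside the uncharacterised 4833420G17Rik.

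Values are log2 expression units, and each difference is V1a_KO minus WT. The lowest value on the arrays was 2.30, a floor at which unexpressed transcripts gather, so a difference from a group near it is compressed. Tested here means a value of 4 or more on any 2 arrays, which 17228 probe sets had. Avpr1a itself lay near the floor on both of its probe sets, at 2.53 and 2.60 on the V1a_KO arrays against 2.53 and 2.53 on the WT arrays for the first, and between 2.31 and 2.33 on all 4 arrays for the second, so it does not check the genotype labels. The labelled tissue was borne out by its markers: all 10 adrenal cortex genes were tested, with a mean level of 12.82 and 12.72 on the V1a_KO arrays against 12.86 and 12.85 on the WT arrays. WT array 1 stood apart, with a correlation of 0.919 to 0.924 with the other 3 arrays across tested probe sets, where the 2 V1a_KO arrays correlated at 0.986. For limma with Benjamini-Hochberg adjustment, 0 of 17228 probe sets passed 0.05, the members included, and 885 had an unadjusted p under 0.05, which is 5.14%.

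Of the 23 probe sets of the 10 genes, 16 were tested and 7 were not. The 7 belonged to Ppt1 (3), 4833420G17Rik (2), Slfn9 (1) and Cetn4 (1), and read 2.30 to 2.35 on every array, at the floor in both genotypes. In all 16 tested probe sets the groups did not overlap and were at least 2-fold apart, 8 of them higher and 8 lower in V1a_KO. That holds for 4% of all tested probe sets, 2.67% higher and 1.33% lower, but the members were chosen for it. The excess of higher probe sets rested on WT array 1: 460 were higher and 229 lower with all arrays, and 232 higher and 234 lower without it. In 8 of the 16 both arrays of the lower group lay under 4, so that these probe sets passed the filter through the higher group alone and had to differ. The gap between the groups was larger than the gap within either group in all 16, against 9.35% of all tested probe sets. By gene, 6 genes in 3 pairs read higher and 4 genes in 2 pairs read lower in V1a_KO, and the 2 genes of each pair lay on the same side. The same direction was found in 53.6% of all pairs of consecutive tested genes. Among the 24 such pairs with both genes at least 2-fold apart without overlap, which include 4 of the 5 pairs, it was 79.2%. The pairs were chosen on these values, so their agreement is a description. All 5 genes with more than 1 tested probe set had them on the same side too, and the share of all genes that do so was not counted.

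**Figure D1:**
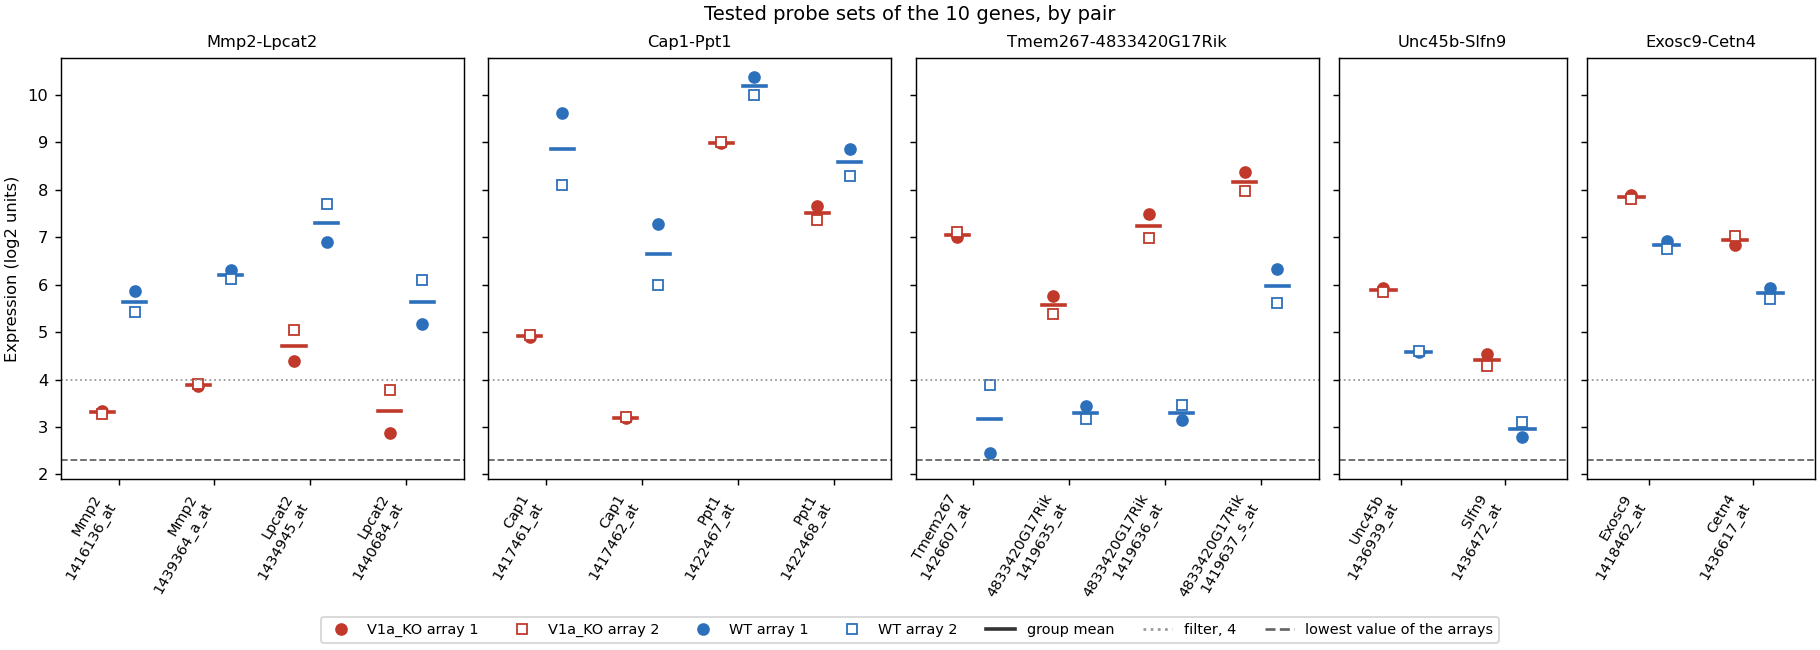
Expression in log2 units (vertical axis) of the 16 tested probe sets of the 10 genes, in 1 panel per pair, with V1a_KO arrays in red to the left of WT arrays in blue; circles are array 1, squares array 2 and bars the group means. In no probe set do the groups overlap, and the low group of 8 probe sets lies under the dotted filter line at 4 on both arrays.

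Mmp2 and Lpcat2 read lower in V1a_KO. Mmp2 (gene ID 17390) encodes gelatinase A, a secreted protease that cuts denatured collagen and collagen IV of basement membranes and is made mostly by stromal cells. Its probe set 1416136_at read 3.33 and 3.28 on the V1a_KO arrays against 5.86 and 5.42 on the WT arrays, a difference of -2.33 with an SE of 0.22 (n = 2 arrays in each group). The second, 1439364_a_at, read 3.86 and 3.91 in V1a_KO against 6.31 and 6.11 in WT, a difference of -2.32 (SE 0.17). Both probe sets of Mmp2 thus gave the same picture, with every V1a_KO value under the filter and every WT value well above it. Lpcat2 (gene ID 270084) encodes an acyltransferase that remodels phosphatidylcholine and makes platelet-activating factor in inflammatory cells. Its probe set 1434945_at read 4.39 and 5.04 in V1a_KO against 6.91 and 7.69 in WT, a difference of -2.58 (SE 0.40). The other, 1440684_at, read 2.88 and 3.78 in V1a_KO against 5.18 and 6.10 in WT, a difference of -2.31 (SE 0.50). In both groups array 2 was the higher one on both Lpcat2 probe sets, by 0.65 to 0.92, an order that Mmp2 did not share.

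On GRCm38.p6, the assembly of the gene table, Mmp2 lies on chromosome 8 from 92827290 to 92853421 and Lpcat2 from 92855313 to 92919279, 1.89 kb apart. No protein-coding gene lies between them. The RefSeq window of 250 bases before to 50 after the start of Lpcat2 therefore begins between the genes and runs into the start of Lpcat2, and it is shown for that position. Capitals mark 4 motifs searched on both strands: TATAAA of the TATA box, the sequence CCAAT, the GC box with the letters GGGCGG and the E box with the letters CACGTG. They occur in 13.6%, 37.4%, 35.7% and 7.15% of all 32851 such windows.
Lpcat2, chr8:92855083-92855382, plus strand: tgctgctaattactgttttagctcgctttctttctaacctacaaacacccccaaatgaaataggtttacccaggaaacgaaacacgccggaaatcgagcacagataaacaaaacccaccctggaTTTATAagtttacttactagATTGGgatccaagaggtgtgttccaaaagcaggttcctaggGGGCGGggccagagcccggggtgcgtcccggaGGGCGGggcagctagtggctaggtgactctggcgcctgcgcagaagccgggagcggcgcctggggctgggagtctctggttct
The Lpcat2 window held 1 TATAAA on the opposite strand, 1 CCAAT on the opposite strand and 2 GC boxes, with 15 CpG dinucleotides, where the median window has 7.

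Stromal markers read lower only in part. Of 9 capsule and fibroblast genes, 8 were tested, and 5 of these read lower in V1a_KO, where 56% of all 10110 tested genes did. The whole list averaged 6.61 and 6.84 in V1a_KO against 7.32 and 6.84 in WT, with 1 gene under 4 on all arrays. The fibronectin gene Fn1 read 3.52 and 3.80 in V1a_KO against 6.16 and 4.10 in WT, and the proteoglycan gene Dcn read 8.79 and 9.41 in V1a_KO against 10.55 and 9.65 in WT. Markers of macrophages, which can express Lpcat2, were mixed: 5 of 8 tested ones read higher and 3 lower, with a median difference of 0.23. The list averaged 8.36 and 8.81 in V1a_KO against 7.83 and 8.25 in WT. C1qb and Cd68 differed by 2.36 and 1.11 without overlap, and C1qb read 6.31 on WT array 1 against 9.97 on WT array 2. Markers of white and brown fat read lower in 4 of 5 tested genes, with 1 more under 4 on all arrays, and the list averaged 5.45 and 7.38 in V1a_KO against 8.40 and 7.14 in WT, with WT array 1 the highest and V1a_KO array 1 the lowest. The brown fat gene Ucp1, which uncouples mitochondria, read 2.80 and 5.91 in V1a_KO against 10.05 and 7.24 in WT. Cidea, a lipid droplet gene of brown fat, read 3.37 and 6.06 in V1a_KO against 9.78 and 6.78 in WT. The part of these 3 cell types in the values of this and the other pairs was not tested, and fewer cells of a type and less RNA per cell cannot be told apart in whole glands.

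Cap1 had the largest difference among the 16 probe sets, and Ppt1 beside it a smaller one of the same sign. Cap1 (gene ID 12331) encodes cyclase-associated protein 1, which recycles actin monomers together with cofilin. Its probe set 1417461_at read 4.90 and 4.94 in V1a_KO against 9.61 and 8.09 in WT, a difference of -3.93 (SE 0.58), or 15.2-fold on the linear scale. The other, 1417462_at, read 3.18 and 3.21 in V1a_KO against 7.27 and 6.0 in WT, a difference of -3.44 (SE 0.49). The V1a_KO arrays were within 0.03 of each other on both probe sets, whereas WT array 1 lay 1.51 and 1.27 above WT array 2. Without WT array 1 the differences were -3.17 and -2.81.

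Ppt1 (gene ID 19063) encodes palmitoyl-protein thioesterase 1, a lysosomal enzyme that removes fatty acids from proteins and whose loss causes infantile neuronal ceroid lipofuscinosis in humans. Its probe set 1422467_at read 8.98 and 9.00 in V1a_KO against 10.37 and 9.99 in WT, a difference of -1.19 (SE 0.21). The other tested one, 1422468_at, read 7.65 and 7.36 in V1a_KO against 8.86 and 8.29 in WT, a difference of -1.07 (SE 0.28). Ppt1 was thus clearly read in both genotypes, unlike the V1a_KO readings of the second Cap1 probe set. The difference of 1422468_at was -0.78 without WT array 1 and -0.93 without V1a_KO array 2, under the 2-fold line in each. As in Cap1, WT array 1 was the highest of the 4 arrays on both probe sets.

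The pair is convergent and overlaps at its 3′ ends. Ppt1 lies on the plus strand of chromosome 4 from 122836077 to 122859175 and Cap1 on the minus strand from 122859048 to 122886076, so that 128 bases belong to both. Where the probes of either gene lie relative to this overlap is not in the tables used here. The start sites are 49.8 kb apart at opposite ends of the pair. Both RefSeq windows are shown because the genes read lower together without a common promoter window, with the same 4 motifs in capitals.
Cap1, chr4:122886027-122886326, minus strand: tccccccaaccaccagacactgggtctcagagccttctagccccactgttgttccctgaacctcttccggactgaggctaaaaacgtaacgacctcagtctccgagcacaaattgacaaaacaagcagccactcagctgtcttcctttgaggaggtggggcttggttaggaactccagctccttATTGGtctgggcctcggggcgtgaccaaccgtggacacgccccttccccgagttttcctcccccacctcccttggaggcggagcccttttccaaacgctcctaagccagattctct
Ppt1, chr4:122835977-122836276, plus strand: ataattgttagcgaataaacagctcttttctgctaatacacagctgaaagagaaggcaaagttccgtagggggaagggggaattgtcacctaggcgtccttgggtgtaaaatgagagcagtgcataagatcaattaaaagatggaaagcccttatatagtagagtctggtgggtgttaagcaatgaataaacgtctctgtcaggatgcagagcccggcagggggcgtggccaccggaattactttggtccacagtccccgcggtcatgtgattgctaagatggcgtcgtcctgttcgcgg
The Cap1 window held 1 CCAAT on the opposite strand and none of the other 3 motifs, and the Ppt1 window held none of the 4. They had 11 and 13 CpG dinucleotides.

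Tmem267 and 4833420G17Rik formed the pair with the largest differences upward in V1a_KO. Tmem267 (gene ID 633640) encodes a transmembrane protein of little known function. Its probe set 1426607_at read 6.99 and 7.11 in V1a_KO against 2.45 and 3.89 in WT, a difference of 3.88 (SE 0.55), or 14.8-fold. The WT arrays differed by 1.44, with array 1 close to the floor and array 2 just under the filter. 4833420G17Rik (gene ID 67392) is a protein-coding gene known by its clone name. Probe set 1419636_at read 7.48 and 6.97 in V1a_KO against 3.15 and 3.45 in WT, a difference of 3.92 (SE 0.27). Probe set 1419635_at read 5.75 and 5.37 in V1a_KO against 3.43 and 3.16 in WT, a difference of 2.27 (SE 0.23). The last, 1419637_s_at, read 8.37 and 7.97 in V1a_KO and still 6.32 and 5.60 in WT, a difference of 2.21 (SE 0.34). The suffix _s_at marks a probe set that can match several transcripts, and among the 3 it alone had WT readings above the filter.

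The pair lies in tandem on the plus strand of chromosome 13, with 4833420G17Rik from 119462015 to 119486120 and Tmem267 from 119488086 to 119610459. The annotated end of the first and the start of the second are 1.97 kb apart, and the start sites 25.3 kb. The windows are shown for the same reason as those of Cap1 and Ppt1.
4833420G17Rik, chr13:119462509-119462808, plus strand: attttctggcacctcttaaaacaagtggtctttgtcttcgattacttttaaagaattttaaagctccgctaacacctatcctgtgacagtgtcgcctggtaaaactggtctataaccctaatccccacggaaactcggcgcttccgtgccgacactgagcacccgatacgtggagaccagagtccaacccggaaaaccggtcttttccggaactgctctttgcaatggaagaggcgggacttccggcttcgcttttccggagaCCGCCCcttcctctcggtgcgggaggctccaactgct
Tmem267, chr13:119487836-119488135, plus strand: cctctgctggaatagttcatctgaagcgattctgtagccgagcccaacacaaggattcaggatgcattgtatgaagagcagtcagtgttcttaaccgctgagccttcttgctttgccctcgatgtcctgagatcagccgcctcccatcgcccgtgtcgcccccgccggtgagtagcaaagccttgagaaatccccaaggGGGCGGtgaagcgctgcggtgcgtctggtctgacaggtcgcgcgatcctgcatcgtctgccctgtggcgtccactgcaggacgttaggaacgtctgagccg
Each of these windows held 1 GC box, with 20 and 22 CpG dinucleotides, and none of the other 3 motifs. A second annotated start of Tmem267 has a window with 50 CpG dinucleotides and 4 GC boxes, and 99.1% of all windows have fewer CpG.

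Around this pair 5 other genes were tested and their readings were mixed: 4 were higher and 1 lower in V1a_KO, with a median difference of 0.50. Paip1, a regulator of translation that ends 1.69 kb before 4833420G17Rik, had 3 tested probe sets that did not go together. Its brightest read 8.90 and 9.12 in V1a_KO against 7.93 and 9.02 in WT, a difference of 0.54 with overlapping groups. The other 2 differed by -1.66 and -1.91 with both V1a_KO arrays lower. Nnt, the mitochondrial transhydrogenase that makes NADPH from the proton gradient, ends 52.8 kb before the pair. Its probe set 1416105_at read 9.20 and 9.29 in V1a_KO against 10.37 and 10.24 in WT, a difference of -1.06. The other tested one, 1456573_x_at, read 10.05 and 10.12 in V1a_KO against 8.67 and 10.87 in WT, a difference of 0.31 with overlapping groups. Hmgcs1, the HMG-CoA synthase of cholesterol synthesis, starts 79.9 kb after Tmem267. Its brightest probe set read 9.87 and 9.79 in V1a_KO against 11.54 and 10.99 in WT, a difference of -1.44, while its 3 other tested probe sets differed by 0.26, 0.87 and 1.34 with overlapping groups. On its brightest probe set none of these 3 genes lay higher in V1a_KO without overlap. Farther on the Hmgcs1 side 2 genes did. Nim1k, a protein kinase gene 99.6 kb away, read 4.62 and 4.56 in V1a_KO against 3.62 and 4.56 in WT, a difference of 0.50 in which the groups all but touched. Zfp131, a zinc finger gene 154.7 kb away, read 8.10 and 7.92 in V1a_KO against 7.43 and 7.36 in WT, a difference of 0.61.

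**Figure D2:**
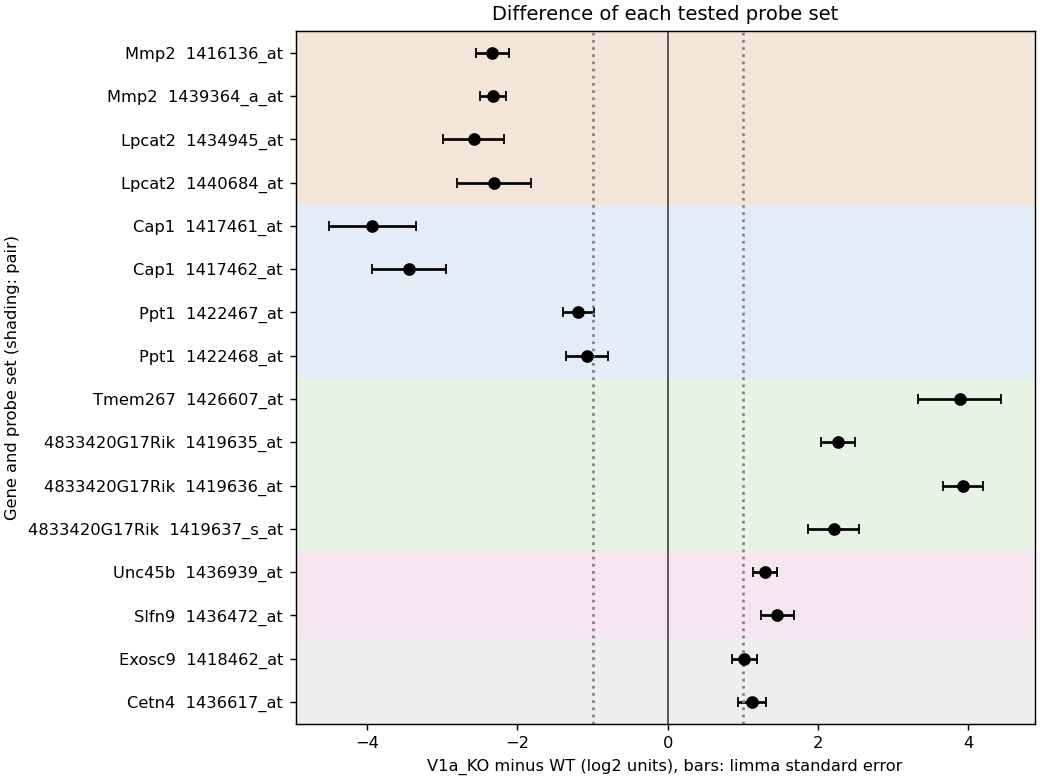
Difference of V1a_KO minus WT in log2 units (horizontal axis) for each tested probe set of the 10 genes, shaded by pair, with bars of 1 limma standard error; dotted lines mark a 2-fold difference. The 4 probe sets of Mmp2 and Lpcat2 lie between -2.58 and -2.31, those of Cap1 and Ppt1 between -3.93 and -1.07, and the other 8 between 1.02 and 3.92.

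Unc45b and Slfn9 read higher in V1a_KO at low levels. Unc45b (gene ID 217012) encodes a co-chaperone of HSP90 that folds myosin in heart and skeletal muscle. Its only probe set, 1436939_at, read 5.93 and 5.84 in V1a_KO against 4.58 and 4.60 in WT, a difference of 1.30 (SE 0.16), or 2.46-fold. Slfn9 (gene ID 237886) belongs to the Schlafen family, genes known from lymphocyte development and interferon responses. Its tested probe set 1436472_at read 4.54 and 4.28 in V1a_KO against 2.79 and 3.11 in WT, a difference of 1.46 (SE 0.22). The arrays of a group were close to each other, within 0.10 in Unc45b and within 0.32 in Slfn9.

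Most skeletal muscle markers were not read above the filter. Of 12 such genes, 10 read under 4 on all 4 arrays, and the list averaged 2.98 and 2.94 in V1a_KO against 3.07 and 3.04 in WT. The 2 tested ones read lower in V1a_KO, where 56% of all 10110 tested genes did. Eno3, the muscle enolase, read 7.48 and 6.74 in V1a_KO against 7.94 and 7.71 in WT. Of 6 lymphocyte markers on the array, 3 read under 4 on all arrays, and the list averaged 4.87 and 4.83 in V1a_KO against 5.13 and 4.37 in WT. Of the 3 tested ones 2 read lower, and Ighm read 9.65 and 9.39 in V1a_KO against 8.85 and 5.98 in WT. Whether muscle cells carry the Unc45b reading was not tested. Nor was it tested whether lymphocytes or the macrophages described above carry the Slfn9 reading.

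The pair is convergent on chromosome 11, with Unc45b on the plus strand from 82911253 to 82943406 and Slfn9 on the minus strand from 82974316 to 82991830. The gap of 30.9 kb holds 1 other protein-coding gene, Slfn5, which had no tested probe set. Their start sites are 80.6 kb apart, and the windows are shown beside those of the other pairs.
Unc45b, chr11:82911003-82911302, plus strand: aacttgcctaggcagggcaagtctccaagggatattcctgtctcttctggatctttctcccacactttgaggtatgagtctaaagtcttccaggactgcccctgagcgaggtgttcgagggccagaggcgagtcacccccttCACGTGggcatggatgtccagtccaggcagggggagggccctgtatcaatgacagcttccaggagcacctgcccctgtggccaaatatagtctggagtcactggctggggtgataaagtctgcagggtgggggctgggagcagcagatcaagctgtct
Slfn9, chr11:82991781-82992080, minus strand: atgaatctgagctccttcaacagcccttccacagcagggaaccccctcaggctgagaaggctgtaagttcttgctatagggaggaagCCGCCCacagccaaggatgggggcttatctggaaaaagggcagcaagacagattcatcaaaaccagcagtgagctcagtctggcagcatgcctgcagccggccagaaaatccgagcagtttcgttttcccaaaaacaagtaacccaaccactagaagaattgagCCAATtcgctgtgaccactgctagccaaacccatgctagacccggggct
The Unc45b window held 1 E box, a palindrome counted once, and 4 CpG dinucleotides. The Slfn9 window held 1 CCAAT, 1 GC box on the opposite strand and 6 CpG dinucleotides. Both counts lie below the median of 7.

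Slfn8, the next Schlafen gene and 10.3 kb from Slfn9, read 4.14 and 4.11 in V1a_KO against 3.67 and 2.89 in WT, a difference of 0.85 without overlap. Schlafen genes are near-identical in part, so the probes of Slfn8 and Slfn9 may not read each gene alone. On the other side Nle1, a ribosome assembly factor 2.81 kb before Unc45b, differed by -0.36. AI662270, 231.7 kb after Slfn9, differed by 1.06 on 1 probe set, while its other lay under the filter at a difference of 0.02.

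Exosc9 and Cetn4 both read higher in V1a_KO, by little more than 2-fold. Exosc9 (gene ID 50911) encodes a core subunit of the RNA exosome, the complex that trims and degrades RNA from the 3′ end. Its single probe set 1418462_at read 7.89 and 7.81 in V1a_KO against 6.91 and 6.76 in WT, a difference of 1.02 (SE 0.17). Cetn4 (gene ID 207175) encodes a centrin, a calcium-binding protein of basal bodies in ciliated cells. Its tested probe set 1436617_at read 6.84 and 7.03 in V1a_KO against 5.92 and 5.70 in WT, a difference of 1.12 (SE 0.19). Both genes were read in both genotypes with small spread, and the difference of Exosc9 was 0.94 without WT array 2 and 0.98 without V1a_KO array 1, under the 2-fold line in each.

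These 2 genes are not neighbours in the sense of the other 4 pairs. Exosc9 lies on chromosome 3 from 36552606 to 36565727 and Cetn4 from 37308627 to 37312446, with 742.9 kb and 7 protein-coding genes between them. Of the 7, only Bbs7 and 4932438A13Rik were tested. Bbs7, a subunit of the ciliary BBSome, starts 7.42 kb after Exosc9 and read 5.83 and 5.59 in V1a_KO against 6.20 and 5.26 in WT, a difference of -0.03. 4932438A13Rik read 6.90 and 7.05 in V1a_KO against 6.02 and 7.40 in WT, a difference of 0.27. The groups overlapped in both, and the WT arrays lay wide apart. The other protein-coding genes between were not tested, so whether the differences of Exosc9 and Cetn4 continued along the chromosome cannot be read. Bbs12, a chaperonin-like protein of BBSome assembly whose gene begins 101 bases from the nearest edge of Cetn4, read 5.30 and 5.48 in V1a_KO against 4.57 and 6.07 in WT, a difference of 0.07. On the far side of Exosc9, Anxa5, a phospholipid-binding annexin, read 12.67 and 12.69 in V1a_KO against 11.87 and 11.96 in WT, a difference of 0.76 without overlap. Beyond it Zfp267, Acad9 and Mccc1 also read higher without overlap, by 0.69, 0.79 and 0.40. In Dcun1d1 and Atp11b, farther still, the groups overlapped.
Cetn4, chr3:37312397-37312696, minus strand: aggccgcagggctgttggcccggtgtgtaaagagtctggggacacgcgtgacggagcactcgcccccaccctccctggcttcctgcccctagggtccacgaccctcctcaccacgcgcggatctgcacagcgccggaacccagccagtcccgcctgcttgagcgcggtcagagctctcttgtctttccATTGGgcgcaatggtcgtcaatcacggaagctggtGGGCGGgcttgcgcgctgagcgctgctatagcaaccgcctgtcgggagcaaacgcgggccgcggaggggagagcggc
The RefSeq window of Cetn4, on the minus strand, is shown because it reaches into the annotated start of Bbs12, whose values did not go with those of Cetn4. It held 1 CCAAT on the opposite strand, 1 GC box and 29 CpG dinucleotides.

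Other genes near the pairs, pooled over the 5 pairs, differed about as much as genes of the array at large. Within 1 Mb of either gene of a pair, 42 other genes had a tested probe set, each gene represented by its brightest. Of these, 2 (4.76%), Hmgcs1 and AI662270, were at least 2-fold apart without overlap, against 3.28% of all 10110 tested genes. Without regard to size, 16 of the 42 (38.1%) had groups without overlap, against 37.7% of all genes. The median absolute difference was 0.27, against 0.24 over all genes, but it varied by pair. By pair, the 3 genes near Mmp2 and Lpcat2 differed by -0.04 to 0.27, and the 8 near Cap1 and Ppt1 by -0.36 to 0.39. The 5 genes near Tmem267 and 4833420G17Rik ranged from -1.44 to 0.61, with groups apart in 3 of them (60%) and a median absolute difference of 0.54. The 14 genes near Unc45b and Slfn9 ranged from -0.86 to 1.06, with 10 higher, groups apart in 6 (42.9%) and a median absolute difference of 0.41. The 12 near Exosc9 and Cetn4 ranged from -0.57 to 0.79, with 8 higher, groups apart in 6 (50%) and a median absolute difference of 0.17. Without WT array 2 the count of 2 was 7, and without V1a_KO array 1 it was 4.

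**Figure D3:**
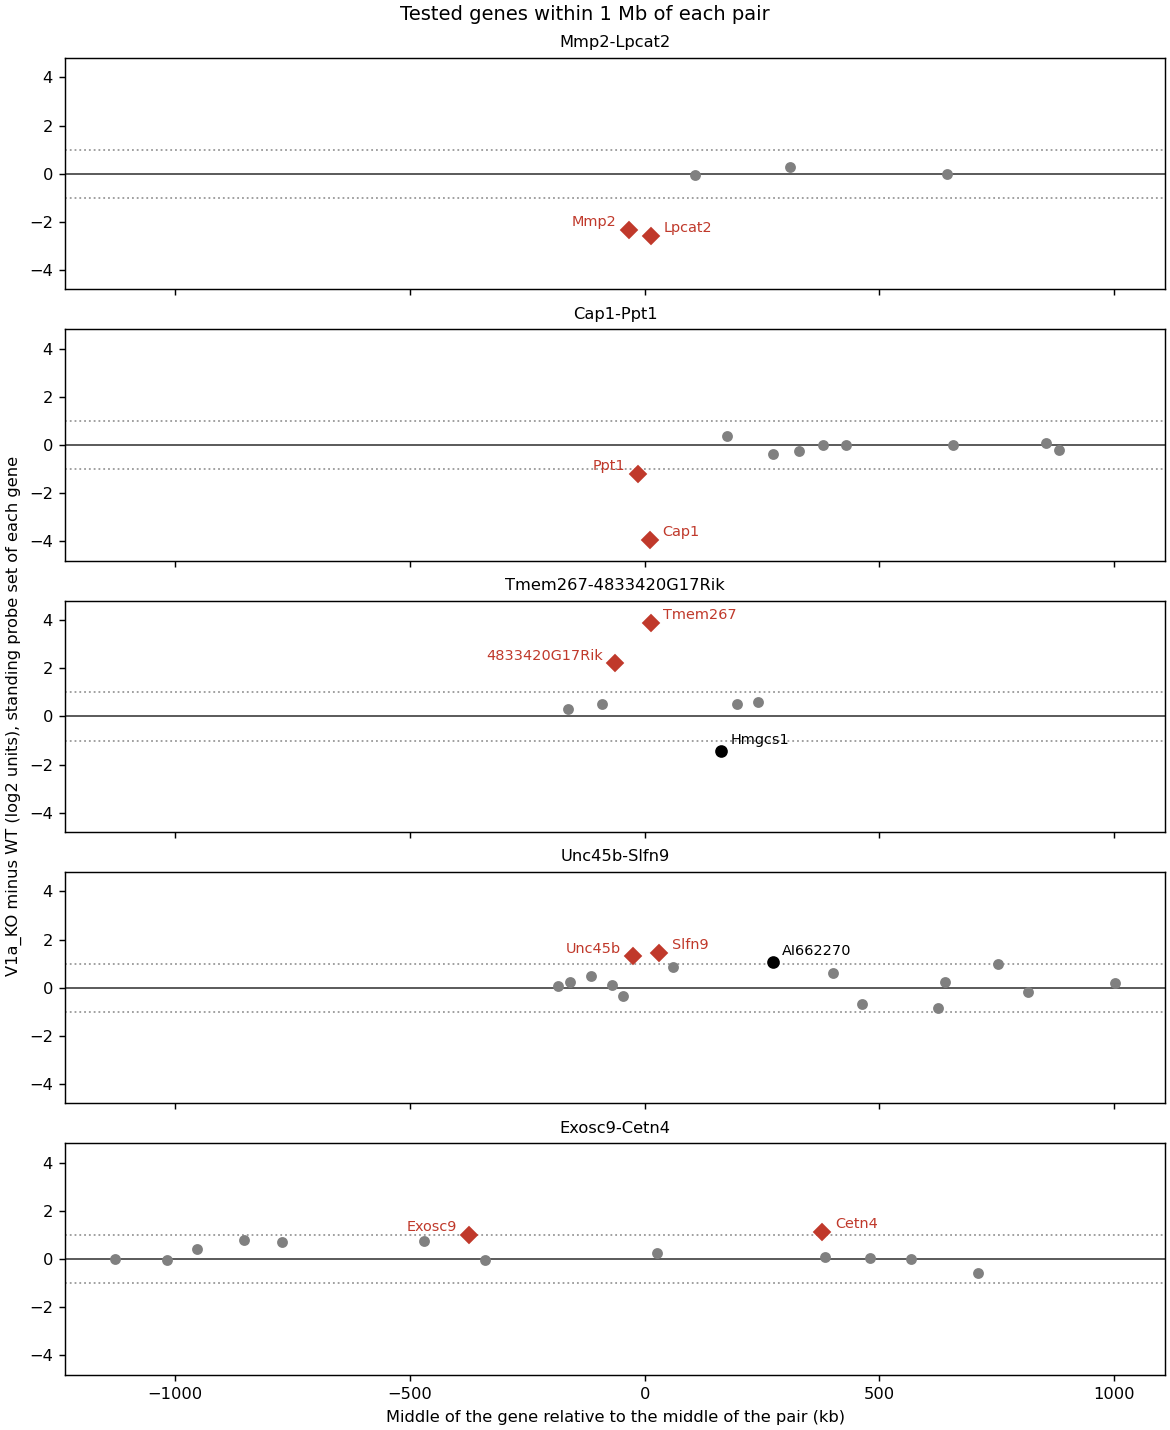
Difference of V1a_KO minus WT in log2 units (vertical axis) for every tested gene within 1 Mb of each pair, placed by the distance of its middle from the middle of the pair in kb (horizontal axis). Red diamonds are the 10 genes, black points are other genes at least 2-fold apart without overlap, grey points the rest; the dotted lines mark 2-fold. Beside Mmp2 and Lpcat2 and beside Cap1 and Ppt1 the other genes lie between -0.36 and 0.39.

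The nearest tested genes on the outer sides gave no common direction. After Lpcat2, Slc6a2, the noradrenaline transporter of chromaffin cells, starts 41.2 kb away and read 8.91 and 8.41 in V1a_KO against 9.17 and 8.23 in WT, a difference of -0.04. Before Mmp2 the nearest was the transcription factor gene Irx3 at a distance of 1026 kb, with a difference of 0.30. After Cap1, Trit1, a tRNA-modifying enzyme 130.5 kb away, differed by 0.39 without overlap. Before Ppt1 the nearest was the zinc finger gene Rlf at 1621 kb, which differed by 0.95 without overlap, with WT array 1 at 4.31 and the other 3 arrays at 5.53 to 6.01.

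Pairs with both genes changed were counted among all neighbouring genes. Sorted by start, the 10086 tested genes with a place gave 10065 pairs of consecutive tested genes on a chromosome. In 24 of them (0.238%) both genes were at least 2-fold apart without overlap, where 3.28% of all 10110 tested genes were so singly. How many pairs unrelated genes would give was not counted. Of these, 13 had both genes higher in V1a_KO, 6 both lower and 5 opposite. Without WT array 1 there were 19, with 6 both higher and 9 both lower. Of the 24 pairs, 4 were Mmp2 with Lpcat2, 4833420G17Rik with Tmem267, Unc45b with Slfn9 and Ppt1 with Cap1. Exosc9 and Cetn4 were not consecutive. Another of the 24 joined Tmem267 to Hmgcs1 on its brightest probe set, in opposite directions, at 3.88 and -1.44. Ranked by the smaller of the 2 absolute differences, the 4 pairs stood at 2, 4, 13 and 15, and Tmem267 with Hmgcs1 at 9. The count moved most without WT array 2, where WT array 1, which stood apart, was the only WT array left. There 204 pairs qualified, and without each of the other 3 arrays 19 to 35 did. The same 4 pairs were among them each time.

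**Figure D4:**
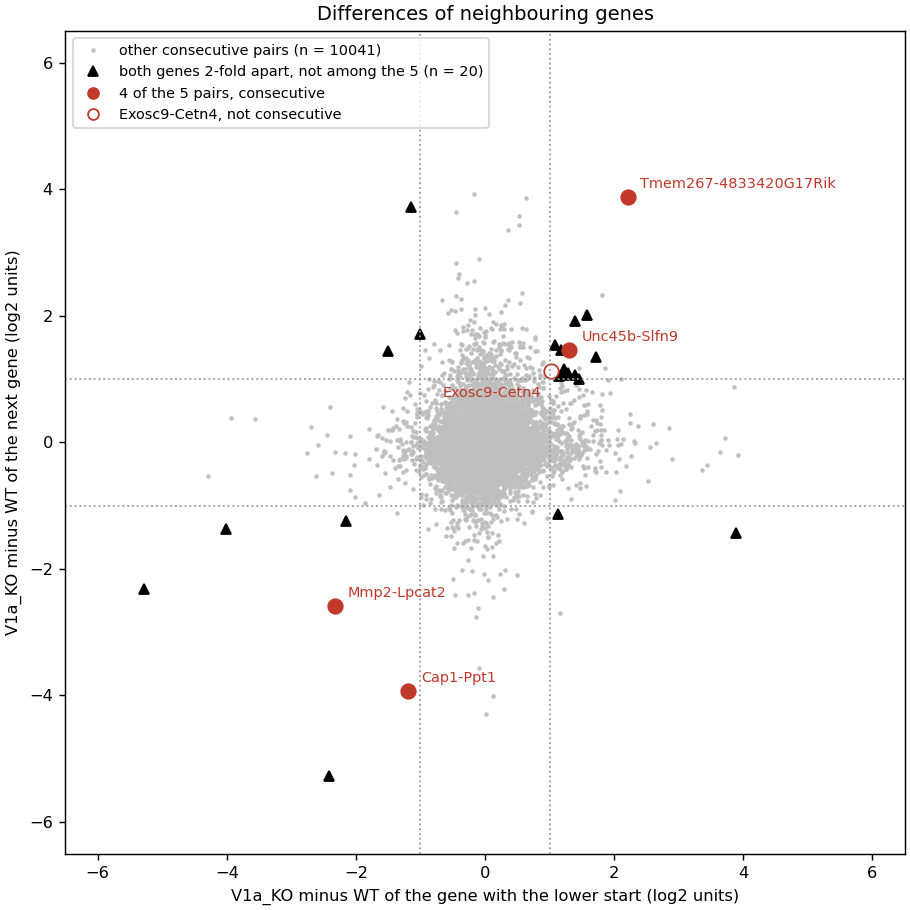
Difference of V1a_KO minus WT in log2 units of each tested gene (horizontal axis) and of the next tested gene on the chromosome (vertical axis), 1 point per pair. Filled red circles are the 4 consecutive pairs and the open red circle is Exosc9 with Cetn4, which are not consecutive; black triangles are the 20 other pairs with both genes at least 2-fold apart without overlap, grey points the remaining pairs, and dotted lines mark 2-fold; Mmp2 with Lpcat2 and Ppt1 with Cap1 lie at the lower left and the other 3 pairs at the upper right.

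The choice of the 5 pairs had no stated threshold, and other pairs stood as high. Ranks 1 and 3 were taken by Serpina1b, an alpha-1 antitrypsin gene, with its tested neighbours on chromosome 12. Serpina1b read 2.30 and 2.30 in V1a_KO against 7.97 and 7.20 in WT. Serpina6, the corticosteroid-binding globulin gene 70.9 kb away, read 3.42 and 4.57 in V1a_KO against 6.08 and 6.73 in WT. Serpina3n, an acute-phase inhibitor gene 668.5 kb away, read 2.50 and 3.12 in V1a_KO against 5.77 and 4.49 in WT. These are genes of liver secretion. The 5 liver markers averaged 2.46 and 2.48 in V1a_KO against 7.08 and 3.35 in WT. Serpina1b is itself 1 of the 5 and the only tested one, so the average is not independent of it. The average lay above 4 on WT array 1 alone, whereas Serpina1b did so on both WT arrays. The part of liver RNA in them was not tested. Umad1 and Glcci1, 80.8 kb apart on chromosome 6, ranked 6 and differed by 1.57 and 2.01 without overlap. WT array 1 was the lowest array in both. Umad1 read 8.37 and 8.10 in V1a_KO against 5.54 and 7.78 in WT. The other tested Glcci1 probe set differed by 1.09. In the pairs ranked 5 and 7, Cat with Abtb2 and Zbtb38 with Pxylp1, the groups overlapped in at least 1 gene, with WT array 1 the lowest array for each of the 4 genes.

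Within a pair the arrays followed each other to different degrees. The root-mean-square distance between the deviations of the 2 genes from their own means over the 4 arrays was 0.11 for Exosc9 and Cetn4, 0.14 for Unc45b and Slfn9, 0.42 for Mmp2 and Lpcat2, 1.15 for Tmem267 and 4833420G17Rik, and 1.43 for Cap1 and Ppt1. The difference of Cap1 exceeded that of Ppt1 by 2.74 in size. The gene most like the mean of each pair was then sought over 10100 other genes and 4 arrays. Its distance is to the mean of the 2 genes, so it cannot be set against the distances between the 2 genes. The most alike gene was Ocel1 on chromosome 8 for Mmp2 and Lpcat2 (0.11), Itga9, an integrin gene, for Cap1 and Ppt1 (0.23), and Zfp945 for Tmem267 and 4833420G17Rik (0.17). For Unc45b and Slfn9 it was Zfp869 (0.12), and for Exosc9 and Cetn4 it was Plin2, a lipid droplet protein (0.07).

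Relatives of the 10 genes were set beside them from lists of their families. Of the 10 other tested matrix metalloproteinases and inhibitors, 6 read higher and 4 lower, with a median of 0.11 and 0 genes 2-fold apart without overlap. Mmp12, the macrophage elastase, had the largest difference and read 5.90 and 8.17 in V1a_KO against 6.19 and 6.36 in WT. Of 15 lysophospholipid acyltransferases and genes of platelet-activating factor, 11 read lower, with a median of -0.22. Here Mboat2 differed by 1.18 and Agpat2 by -1.03 without overlap, so 2 of 15 were past the line, in opposite directions, where 3.28% of all tested genes are. Among 15 genes of actin turnover 10 read lower, with a median of -0.12, and Capza1 at 1.45 had overlapping groups. With 56% of all tested genes lower, the counts of these 3 lists are a description only.

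The other 5 families were described in the same way. Of 17 depalmitoylation and ceroid lipofuscinosis genes 12 read lower, with a median of -0.12 and the largest difference in Lypla1 at 0.84 with overlap. Of 6 myosin and muscle chaperones 5 read lower, with a median of -0.21 and Hspb8 at -0.69 with overlap. Only 1 other Schlafen gene was tested, Slfn8. The 16 other subunits and cofactors of the RNA exosome had 9 higher and 7 lower, with a median of 0.07. The largest difference there was in C1d at 1.01, where WT array 1 read 7.97 and the other 3 arrays at least 10.42. The 8 genes listed as centrins and centrin partners had a median of 0.14, with Cetn3 at 0.54 with overlap. This list also held Bbs7 and Bbs12, the BBSome genes described above near Exosc9 and Cetn4. In these 5 families 0 genes were 2-fold apart without overlap, against 3.28% of all 10110 tested genes. Over all these genes 56% read lower and the median was -0.05. In lists this short the counts are a description only.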

How the data were processed

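TRIzol-extracted RNA was enriched for mRNA and labelled where its integrity number was 8.0 to 9.0, per the labels' protocols. The deposited log2 values were made by the authors with GCRMA in Bioconductor 3.14, per the labels' protocols. GCRMA corrects a background modelled from probe sequence, normalizes and summarises probe sets. The log2 scale was read from the values. For the GCRMA version and for filters, details were not given in the sources used here, and values were not normalized further. The 64 control probe sets were left out. Genes were named from the platform annotation, which gives 34945 probe sets 1 gene. Places, promoter windows and strands came from RefSeq on GRCm38.p6, with windows for 8 of the 10 genes. A genome build applies only to those places.

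V1a_KO was compared with WT with genotype as the sole term in limma 3.58.1 (R 4.3.3), by its functions lmFit and eBayes, over all 17228 tested probe sets. Standard errors (SE) of differences are those moderated by limma. The probe set with the highest mean stood for its gene, for 10110 genes. Called genes differ by at least 1 log2 unit with both V1a_KO arrays on 1 side of both WT arrays. Neighbours were consecutive tested genes by start. The fit and the call rule were tested on simulated data. The number of arrays limits the precision. The members and lists were chosen with earlier results of these data known. Named are the 10 genes, Avpr1a, Nnt, the nearest tested genes, called genes within 1 Mb, the 5 highest-ranked other pairs, the most alike genes and the called or largest members of the family lists. Other names, including Nim1k, Zfp131, Bbs7, 4932438A13Rik and Slfn5, were chosen after their values were seen. So were Zfp267, Acad9, Mccc1, Dcun1d1, Atp11b and the marker genes Fn1, Dcn, Ucp1, Cidea, C1qb, Cd68, Ighm and Eno3. Alternatives were no filter, a filter at 6, quantile normalization, median centring, plain probe sets (suffix _at with no further letter), a variance trend with robust fitting, the replicate block, each array left out, the mean of the probe sets of a gene, pairs within 100 kb, and windows of 0.5 and 2 Mb.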

Additional observations from a re-analysis of the deposited data

How the results depend on the processing

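None of the 16 tested probe sets of the 10 genes changed sign under quantile normalization, median centring or the loss of any 1 array, and leaving out each array in turn left 15 of them 2-fold apart without overlap each time, with 1 probe set of Ppt1 or that of Exosc9 the exception. Probe sets past an adjusted p of 0.05 in limma numbered 0, and 2 with the filter at 6, with quantile normalization, with centred arrays and with plain probe sets, where the leave-one-out sets gave 0 to 0. At an unadjusted p under 0.01 with a 2-fold difference there were 144, 78 without a filter and 25 to 1497 leaving out each array. Called probe sets numbered 689, 417 with plain probe sets and 466 to 2555 leaving out each array. Called neighbour pairs numbered 24, 14 without a filter and 19 to 204 leaving out each array. Without a filter untested genes come between, and 2 of the 4 consecutive pairs remained. Called flanking genes numbered 2, 1 with the filter at 6 and 2 to 7 leaving out each array. The cause was not tested where fewer features or arrays do not show it. With the replicate number as a block, 126 probe sets passed the unadjusted threshold and 0 the adjusted one. Deviations of same-numbered arrays correlated at 0.15, and with 2 pairs the numbers are not shown to pair the arrays. Differences of genes near the floor in 1 genotype are compressed, and 2 arrays per genotype limit every value.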

Other observations

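Some of the other called neighbour pairs are relatives that lie together. Omd and Ogn, small proteoglycans of connective tissue 15.4 kb apart on chromosome 13, differed by -2.16 and -1.24. Zfp994 and Zfp944, zinc finger genes 112.3 kb apart on chromosome 17, differed by 1.22 and 1.16. Both pairs were chosen after their values were seen. Of the 24 called pairs, 2 overlap on the chromosome, where 698 of all 10065 pairs of consecutive tested genes do. The median gap was 77.4 kb, against 29.5 kb for all 10065 pairs.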
